A study of Rattus norvegicus with 24 samples.

Results

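The genes described here take up and oxidise fatty acids in the heart: 32 rat genes for fatty acid entry and activation, the carnitine shuttle, the steps of beta-oxidation, acyl-CoA thioesterases, uncoupling proteins and the regulator Ppara. Every probe set that the array's annotation assigns to one of these symbols was taken, which gave 56 probe sets of the 8799 in the table. They represent 30 of the 32 genes, of 5147 genes named on the array, since Crat and Mlycd matched no probe set. Of the 56 probe sets, 49 are annotated to 1 gene and 7 to 2 genes, namely 5 to Cd36 and Cd36l1, 1 to Acaa1a and Acaa1b, and 1 to Acot1 and Acot2. Signal from the latter 7 cannot be divided between the paired genes, which are given together. Of all 56, 53 probe sets passed the filter on dim signals and were tested, while the single probe sets of Hadh and Ehhadh and 1 annotated to Acot1 were not.

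The study measured total RNA from the left ventricle of Dahl salt-sensitive rats, a strain that becomes hypertensive when fed salt, on an oligonucleotide array. Rats were received when 5 weeks old, and running or salt feeding started a week later, when they were 6 weeks old. Controls were sedentary rats of the same age on normal chow. The exercised rats ran on a treadmill over 6 weeks, with 3 weeks of rising load and then 16 m/min at an incline of 5 degrees for 90 min a day, and the high salt rats were fed chow with 6% NaCl without running. Each group has 3 arrays by its title: controls, exercised and high salt hearts at 3 and 6 weeks, and controls and high salt hearts at 15 weeks; from when those weeks were counted is not said. The labels do not say that the arrays of a group came from separate animals or that hearts were not pooled, so every p-value below measures the spread between arrays and that spread may be technical.

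Long-chain fatty acids reach the cardiac myocyte after lipoprotein lipase (Lpl) releases them from circulating triglyceride, cross the membrane with the help of the transporter CD36, are bound by the cytosolic carrier FABP3 and are activated to acyl-CoA by ACSL1. Carnitine palmitoyltransferases and the carrier encoded by Slc25a20 move the acyl group into the mitochondrion, where dehydrogenases, hydratases, hydroxyacyl dehydrogenases and thiolases shorten it step by step. The adult heart draws most of its ATP from this pathway, and many of its genes are targets of the nuclear receptor PPAR-alpha, which binds with a retinoid X receptor to repeats of the hexamer AGGTCA.

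Promoter windows are shown for called members that hold such a repeat (Ucp3, Echs1 and Etfa), for Acadvl, which has the closest match, and for Hadhb, which lies next to Hadha. The windows run from 250 bases before to 50 bases after the annotated start and come from RefSeq, build GRCr8; 26 of the 32 members matched a window by symbol. Each is written 5′ to 3′ on the strand of its gene, and capitals mark a match to AGGTCANAGGTCA with at most 2 mismatches, or a match to AGGTCA alone, on either strand. The windows are Ucp3 at chr1:164227660-164227959 on the plus strand, Echs1 at chr1:204333457-204333756, Etfa at chr8:64787916-64788215, Acadvl at chr10:55236656-55236955 and Hadhb at chr6:31907451-31907750, the last 4 on the minus strand.
Ucp3: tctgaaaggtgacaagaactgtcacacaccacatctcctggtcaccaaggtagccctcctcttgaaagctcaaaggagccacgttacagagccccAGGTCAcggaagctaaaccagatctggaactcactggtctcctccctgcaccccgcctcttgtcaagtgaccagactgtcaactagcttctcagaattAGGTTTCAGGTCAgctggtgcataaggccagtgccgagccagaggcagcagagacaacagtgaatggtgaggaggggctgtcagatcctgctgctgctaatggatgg
Echs1: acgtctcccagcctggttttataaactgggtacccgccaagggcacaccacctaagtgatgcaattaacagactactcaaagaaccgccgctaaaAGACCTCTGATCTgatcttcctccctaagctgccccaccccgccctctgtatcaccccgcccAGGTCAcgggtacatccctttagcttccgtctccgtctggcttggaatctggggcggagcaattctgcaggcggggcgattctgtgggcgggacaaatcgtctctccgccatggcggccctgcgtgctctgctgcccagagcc
Etfa: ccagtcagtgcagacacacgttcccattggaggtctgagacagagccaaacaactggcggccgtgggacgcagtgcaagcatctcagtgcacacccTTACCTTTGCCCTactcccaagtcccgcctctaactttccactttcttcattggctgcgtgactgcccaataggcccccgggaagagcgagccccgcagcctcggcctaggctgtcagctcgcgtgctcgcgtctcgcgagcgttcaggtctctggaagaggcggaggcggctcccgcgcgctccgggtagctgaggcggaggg
Acadvl: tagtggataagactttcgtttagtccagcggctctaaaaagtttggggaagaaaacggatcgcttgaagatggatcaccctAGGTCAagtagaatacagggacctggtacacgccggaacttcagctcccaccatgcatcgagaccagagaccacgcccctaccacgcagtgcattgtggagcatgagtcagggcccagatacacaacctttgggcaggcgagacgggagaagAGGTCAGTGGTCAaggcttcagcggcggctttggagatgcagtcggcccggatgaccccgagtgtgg
Hadhb: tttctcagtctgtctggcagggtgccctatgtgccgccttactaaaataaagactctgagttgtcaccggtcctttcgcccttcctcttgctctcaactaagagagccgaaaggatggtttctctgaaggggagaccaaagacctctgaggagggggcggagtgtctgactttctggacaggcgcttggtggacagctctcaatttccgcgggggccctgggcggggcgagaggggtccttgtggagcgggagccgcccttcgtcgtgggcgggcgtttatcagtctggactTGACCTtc

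The repeat AGGTCANAGGTCA with at most 2 mismatches was found in 6 of the 26 member windows (23.1%) and in 3.77% of all 33469 windows of the same length. The 6 were those of Ucp3, Echs1, Crat, Etfa, Slc25a20 and Acadvl. In Acadvl the match AGGTCAGTGGTCA had 1 mismatch and began at base -17, counted from the start as base 1 with no base 0. The match in Ucp3, AGGTTTCAGGTCA, began at base -57 and had 2 mismatches. The single hexamer AGGTCA, which can lie inside the repeat, occurred in 5 of 26 member windows (19.2%) against 16.2% of all windows. The extended hexamer AAGGTCA occurred in 1 of 26 (3.85%), that of Hadhb, against 4.61%. GGGCGG, the core of the GC box, occurred in 16 of 26 (61.5%) against 33.1%. Hadhb and Hadha, which encode the beta and alpha subunits of the mitochondrial trifunctional protein, lie head to head in GRCr8, so their windows overlap. Ucp3 lies beside Ucp2, Cd36 beside Cd36l1 and Acot2 beside Acot1. These matches describe letters in a window and no binding was measured.

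Before the comparisons, properties of the arrays have to be stated. Of the 24 deposited columns, 2 arrays appear both as controls and as exercised hearts of 3 weeks (numbers 2 and 3), so there are 22 distinct arrays. The 6-week controls stood apart in RNA integrity: the ratio of 3′ to 5′ signal for GAPDH was 1.58, 2.48 and 3.99 in arrays 1, 2 and 3, against 0.989 to 1.18 in the 16 distinct arrays outside the 6- and 15-week controls. The 15-week controls had ratios of 1.09, 1.52 and 1.58. The same ratio for hexokinase rose in the same order in the 6-week controls, at 3.00, 8.35 and 11.1. In the same 16 other arrays it was 1.482 to 3.155, so that 6-week control 1 lay within their range. For beta-actin the ratio was 1.98, 3.29 and 2.73 in the 6-week controls, highest in array 2, against 1.015 to 1.683 in those 16 arrays. Cardiac myocyte markers, 11 of 13 listed, summed to between 216036 and 365735 in every distinct array. Markers of other cell types shifted in several comparisons, and their sums or counts of called probe sets are given beside most of those results. In whole tissue, fewer cells of a type and less RNA per cell cannot be told apart.

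**Figure D1:**
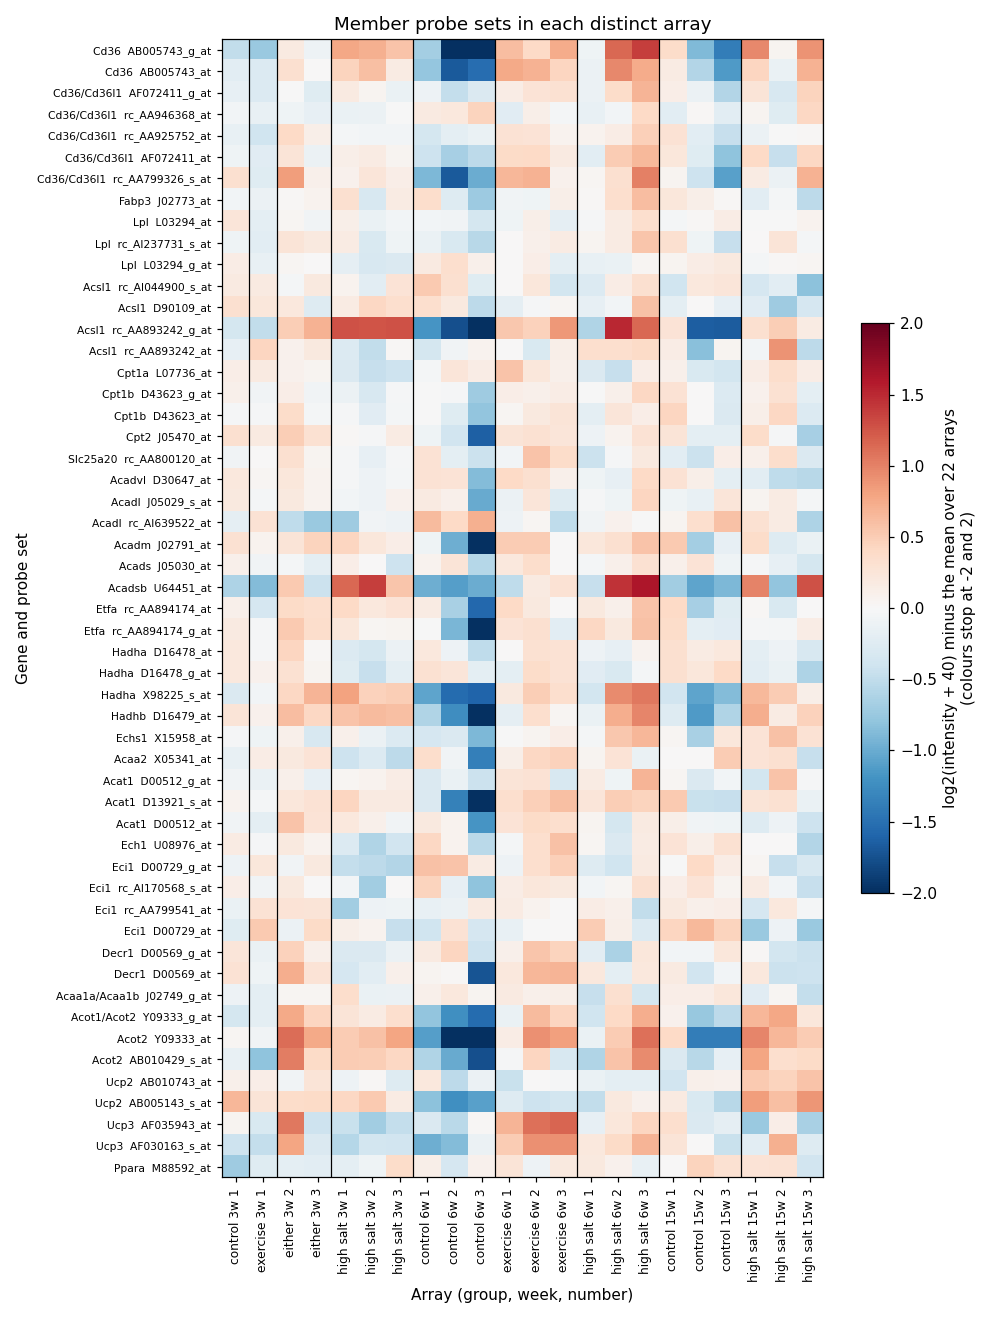
Each row is 1 of the 53 tested member probe sets and each column 1 of the 22 distinct arrays; colour is log2(intensity + 40) minus the row's mean over the arrays, and "either" marks the 2 arrays deposited under both labels. The darkest blue cells lie in 6-week controls 2 and 3, and 34 of the 53 rows have their lowest array among the 6-week controls.

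Within the 6-week controls, part of the members fell in the order of the GAPDH and hexokinase ratios. In 28 of 53 tested member probe sets (52.8%), signal fell from 6-week control 1 to 2 to 3, the order of these ratios, against 19.2% of all 6555 probe sets tested; the other 25 did not. In the order of the beta-actin ratio, 10 members fell (18.9%), against 14.3% of all probe sets. The lowest of all 22 arrays was a 6-week control for 34 of 53 members (64.2%), against 17.3% of all probe sets. Among the 15-week controls, the array with the ratio of 1.09 was the highest for 32 of 53 members (60.4%), against 31.3%. For 2 members (3.77%), Ucp2 by AB005143_s_at and the probe set annotated to both Acot1 and Acot2, all 3 6-week controls lay below every other distinct array; the share over all probe sets was 1.63%. No member had all 3 6-week controls above every other array, which 3.63% of all probe sets did.

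**Figure D2:**
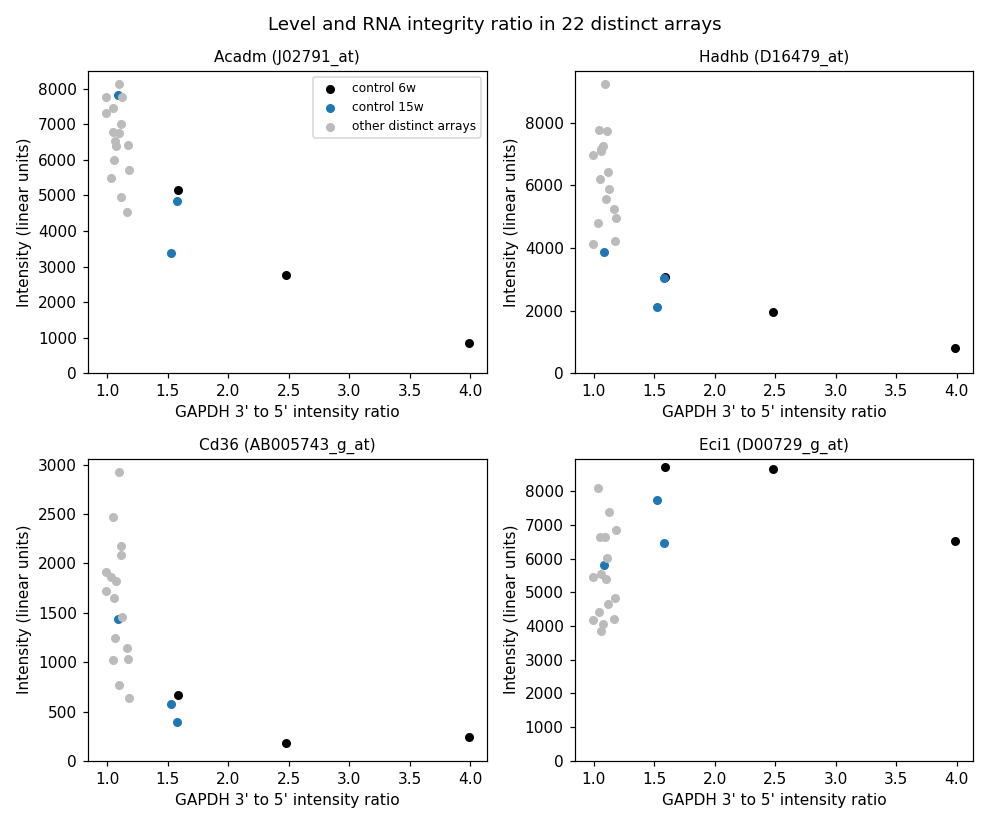
Linear intensity of 1 probe set each of Acadm, Hadhb, Cd36 and Eci1 (vertical axes) is plotted against the GAPDH 3′ to 5′ ratio (horizontal axes) for the 22 distinct arrays, with the 6-week controls in black and the 15-week controls in blue. Acadm falls from 5157.5 at a ratio of 1.58 to 855.7 at 3.99. Eci1 by D00729_g_at also falls in the order of the ratio, but less, from 8728.8 to 6537.7 in the same arrays.

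At 6 weeks the signal of many fatty acid oxidation genes was higher in both exercised and high salt hearts than in the controls. In the exercised hearts 16 of 53 member probe sets rose and none fell in the limma fit (adjusted p under 0.05), covering 10 genes by probe sets of their own; over all probe sets, 4.47% were called higher and 3.36% lower. In the high salt hearts 18 rose and none fell, covering 12 genes, against 6.64% and 7.73% of all probe sets; without Acadsb, which passed the filter on dim signals only through high salt arrays, 17 probe sets and 11 genes rose. In either direction, 7.83% of all probe sets were called with exercise and 14.4% with salt. The median log2 change of the members was 0.42 with exercise and 0.43 with salt, while over all probe sets it was -0.12 and -0.15. Both comparisons use the same 3 controls, whose integrity ratios are given above. In the fit with that ratio as covariate, none of the 16 and none of the 18 kept an adjusted p under 0.05 (smallest 0.195 and 0.265): 12 and 14 kept their sign, and the median change of these members went from 1.54 to 0.42 and from 1.62 to 0.50. Set against the 1 control of 3 weeks and 3 controls of 15 weeks instead, again none was called (smallest adjusted p 0.207 and 0.0679), and 15 and 17 kept their sign. Leaving out 6-week control 3 or exercised array 2 lowered the count with exercise to 10. Every statement that a gene rose at 6 weeks therefore refers to the comparison with these 3 controls.

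Markers of other cell types also set these controls apart from the treated hearts. Atrial markers, 4 of 5 listed, summed to 8931.1 to 14757 in the controls, 13813 to 20314 with exercise and 22246 to 24550.0 with salt, and 4 of 13 tested probe sets were called higher with exercise and 6 with salt. Leukocyte markers, 7 of 9 listed, summed to 4199.2 to 4546.8, 5369.2 to 7180.9 and 5925.3 to 8026.9 in the same order, so that all 6 treated hearts lay above the controls; 2 of 9 probe sets were called higher with exercise, and 3 higher and 1 lower with salt. Cd8a and Itgam averaged below 40 units over the 22 distinct arrays. Skeletal muscle markers, 7 of 10 listed, went the other way, from 932.3 to 1220.9 in the controls to 498.7 to 911.6 with exercise and 670.5 to 775.5 with salt, and 1 of 4 tested probe sets was called lower in each comparison. Myh2, Tnni2 and Myog also averaged below 40 units over the 22 distinct arrays. Of 9 tested smooth muscle probe sets, 5 were called lower and 1 higher with exercise, and 4 lower and 1 higher with salt. The smooth muscle sums overlapped, at 9610.0 to 16244 in the controls, 12080 to 13633 with exercise and 12108 to 13763 with salt. Of 20 cardiac myocyte probe sets, 4 were called higher and 1 lower with exercise, and 5 higher and 1 lower with salt. The part of all these markers in the members' changes was not tested.

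Among the uptake genes, Cd36 rose in both treatments. Its brighter own probe set, AB005743_g_at, read 669.3, 177.4 and 239.5 in the 6-week controls, 1715.1, 1459.8 and 1858.1 in the exercised hearts and 1027.1, 2474.1 and 2924.2 in the high salt hearts. No control reached any treated array. Cd36 rose by 2.29 ± 0.44 (log2, SE) with exercise (adjusted p = 0.00364) and by 2.51 ± 0.44 with salt (0.00113). The second own probe set, AB005743_at, gave 1.96 ± 0.32 and 1.86 ± 0.32 (adjusted p = 0.00174 and 0.00109). Of the 5 probe sets annotated to both Cd36 and Cd36l1, 2 rose in both comparisons, by 0.85 and 1.68 with exercise and 0.85 and 1.65 with salt, and the other 3 did not pass, with changes from -0.33 to 0.60. Under the integrity covariate the change by AB005743_g_at was 0.47 ± 0.60 and 0.81 ± 0.58.

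Acsl1, which couples long-chain fatty acids to coenzyme A, gave different readings from its 4 probe sets. The brightest, rc_AI044900_s_at, read 4439.5, 3879.6 and 2593.1 in the 6-week controls, 3112.6, 3607.2 and 2379.1 with exercise and 2545.0, 3435.4 and 3882.4 with salt, with all groups overlapping, and changed by -0.24 ± 0.24 with exercise and -0.13 ± 0.24 with salt (adjusted p = 0.58 and 0.774). rc_AA893242_g_at read 170.1, 100.2 and 17.7 in the controls, 646.7, 613.7 and 827.0 with exercise and 271.7, 1306.8 and 1009.1 with salt. This probe set rose by 2.61 ± 0.51 and 2.67 ± 0.51 (adjusted p = 0.00393 and 0.0021), and all 6 treated arrays lay above all 3 controls. The remaining probe sets, D90109_at and rc_AA893242_at, lay between -0.06 and 0.46 and did not pass. The spread between the probe sets of this 1 gene, 2.85 with exercise and 2.80 with salt, was wider than for any other member.

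Fabp3 and Lpl were not called in any comparison. Fabp3, the heart-type fatty acid binding protein, ranged from 12184.6 to 31015.7 over the 22 arrays and changed by 0.20 ± 0.23 with exercise and 0.54 ± 0.23 with salt at 6 weeks (adjusted p = 0.63 and 0.125). Its lowest array was 6-week control 3 and its highest a high salt heart of 6 weeks. Lpl by rc_AI237731_s_at ranged from 6906.1 to 14872.7 and changed by 0.42 ± 0.20 and 0.58 ± 0.20 (0.198 and 0.054), while L03294_g_at gave -0.22 ± 0.14 and -0.28 ± 0.14. Adipocytes also express Cd36 and Lpl. Their markers, 6 of 8 listed and Fabp4 and Lipe among them, summed to 6633.0 to 11510.2 in the 6-week controls. The sums were 5645.4 to 7133.9 with exercise and 4226.4 to 5246.3 with salt. Fabp4 by itself read 2993.2, 6684.2 and 7001.4 in the 6-week controls, rising in the order of the GAPDH ratio. Over the 8 tested adipocyte probe sets the median change was -0.02 with exercise and 0.08 with salt, with 1 and 3 called lower and 0 higher. Pck1 averaged below 40 units over the 22 distinct arrays. Endothelial markers, 6 of 9 listed, summed to 2067.0 to 3642.0 in the 6-week controls, 1604.4 to 1988.7 with exercise and 1412.7 to 2031.4 with salt. The endothelial sums of the controls lay above those of all 6 treated hearts, and the adipocyte sums of controls and exercised hearts overlapped; the part of these markers in the result was not tested.

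None of the 5 probe sets of the carnitine shuttle passed at 6 weeks. Cpt1b, the muscle form of carnitine palmitoyltransferase that controls entry into the mitochondrion, changed by 0.36 ± 0.20 with exercise and 0.41 ± 0.20 with salt by its brighter probe set, whose signal ranged from 4648.5 to 10130.3 over all arrays. Cpt1a, the liver form, ranged from 559.5 to 1189.0 and changed by 0.18 ± 0.19 and -0.32 ± 0.19. Cpt2, the inner membrane enzyme, had the largest estimates, 0.96 ± 0.30 and 0.78 ± 0.30, which missed the threshold (adjusted p = 0.0511 and 0.0816). In its 6-week controls Cpt2 read 3077.0, 2483.8 and 1027.1, in the order of the integrity ratio. Slc25a20, the carnitine-acylcarnitine carrier, changed by 0.41 ± 0.23 and 0.03 ± 0.23.

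Among the dehydrogenases and their electron acceptor, 2 of 8 tested probe sets rose with exercise and 4 with salt, of Acadm, Etfa and, with salt, Acadsb. Acadm, which acts on medium-chain acyl-CoA, read 5157.5, 2752.4 and 855.7 in the 6-week controls, 7764.8, 7766.6 and 5490.9 with exercise and 6409.6, 6794.3 and 8144.4 with salt. It rose by 1.57 ± 0.41 and 1.60 ± 0.41 (adjusted p = 0.0231 and 0.0132), and the groups did not overlap, but the first control lay close to the lowest exercised heart. In the covariate fit the estimate changed sign, to -0.75 ± 0.36 with exercise and -0.58 ± 0.34 with salt. Etfa, the alpha subunit of the flavoprotein that takes electrons from these enzymes, read 3166.3, 1787.5 and 916.9 in the controls by the brighter rc_AA894174_at, against 3724.5, 3230.4 and 2822.7 with exercise and 3235.9, 3022.1 and 4186.4 with salt. By this probe set it rose with salt (0.97 ± 0.31, adjusted p = 0.0419) and missed the threshold with exercise (0.88 ± 0.31, 0.0832), and control 1 exceeded 1 heart of each treatment. The second probe set, rc_AA894174_g_at, read 2753.7, 1445.4 and 634.4 in the controls, 3346.2, 3435.3 and 2378.7 with exercise and 3698.9, 3171.5 and 4132.8 with salt. It rose by 1.12 ± 0.32 and 1.39 ± 0.32 (0.0395 and 0.00727), although control 1 exceeded 1 exercised heart. Both Etfa estimates were below 0 in the fit with the covariate, at -0.60 and -0.27 for salt.

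Acadsb, which acts on short branched-chain acyl-CoA, was close to the floor of the array in several groups. It read 13.2, 8.4 and 12.1 in the 6-week controls, 33.1, 78.4 and 86.7 with exercise and 36.0, 242.5 and 279.4 with salt. Its mean over the 11 fitted arrays without salt was 29.7, under the filter's 41.9, so it was tested only because of its level in high salt hearts, and the estimate of 1.89 ± 0.49 with salt (adjusted p = 0.0133, and 0.0228 with no filter) is given as a description. With exercise the change was 1.01 ± 0.49 (0.213). Since 40 units were added to each value before taking logarithms, these figures understate the change of so dim a signal. The enzymes for very long, long and short chains were bright and did not pass: Acadvl ranged from 1700.5 to 4133.1 over all arrays, Acadl by J05029_s_at from 5072.3 to 13837.0 and Acads from 1365.4 to 2631.0. Their 6-week changes lay between 0.15 and 0.38. A dim second probe set of Acadl, rc_AI639522_at, ranged from 7.8 to 90.1 and gave -0.77 ± 0.28 with exercise and -0.58 ± 0.28 with salt (adjusted p = 0.0901 and 0.169).

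Of the 9 tested probe sets of the hydratases, trifunctional protein and thiolases, 3 rose with exercise and 4 with salt. Hadhb, whose subunit holds the thiolase activity, read 3068.3, 1947.5 and 818.7 in the 6-week controls, 4128.5, 5879.5 and 4800.5 with exercise and 4229.9, 7752.4 and 9239.7 with salt. It rose by 1.5 ± 0.35 with exercise (adjusted p = 0.0117) and by 1.95 ± 0.35 with salt (0.00132), with no overlap of treated and control arrays. The covariate fit gave -0.19 ± 0.41 and 0.37 ± 0.40. Acat1, the acetoacetyl-CoA thiolase, read 2705.8, 3010.7 and 2450.1 in the controls by its brightest probe set D00512_g_at, 3960.3, 4042.8 and 2636.6 with exercise and 3740.2, 3137.3 and 5358.7 with salt. It did not pass by that probe set (0.36 ± 0.23 and 0.55 ± 0.23, adjusted p = 0.368 and 0.119), although no high salt heart lay below a control, nor by D00512_at. Acat1 rose by D13921_s_at, which read 1432.6, 666.3 and 316.8 in the controls, 2245.4, 2480.4 and 2682.6 with exercise and 2100.4, 2502.6 and 2404.4 with salt. The change was 1.80 ± 0.34 and 1.72 ± 0.34 (0.00346 and 0.00269), and -0.15 and -0.11 with the covariate.

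Hadha, the alpha subunit with hydratase and dehydrogenase activity, was measured by 3 probe sets that differed. The brightest, D16478_at, read 8183.7, 6571.9 and 4986.3 in the 6-week controls, 7121.5, 8728.4 and 8616.5 with exercise and 6564.6, 6298.8 and 7472.0 with salt, which overlapped, and did not pass in either comparison (0.33 ± 0.17 and 0.07 ± 0.17). X98225_s_at read 515.7, 356.4 and 340.3 in the controls, 1277.9, 1579.0 and 1412.0 with exercise and 852.5, 2183.5 and 2354.1 with salt. By X98225_s_at the signal rose by 1.74 ± 0.29 and 1.94 ± 0.29 (adjusted p = 0.00189 and 0.000415), the smallest adjusted p of any member in the salt comparison. Its estimates under the covariate were 0.98 ± 0.47 and 1.23 ± 0.45. Echs1, the short-chain enoyl-CoA hydratase, read 2128.1, 2209.1 and 1419.8 in the controls, 2692.9, 2805.0 and 2974.2 with exercise and 2611.7, 3921.1 and 4283.9 with salt. It rose with salt (0.89 ± 0.23, adjusted p = 0.0141); with exercise the change was 0.57 ± 0.23 (0.131), although no exercised heart lay below a control. Acaa2, the mitochondrial thiolase for medium and long chains, ranged from 3675.4 to 13492.5 over all arrays and was not called (0.69 ± 0.31 and 0.43 ± 0.31). Hadh, the short-chain hydroxyacyl dehydrogenase, was too dim to test, at 12.5 to 133.2.

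None of the 8 tested probe sets of the auxiliary and peroxisomal enzymes passed at 6 weeks, and the median change was 0.20 with exercise and -0.03 with salt. Eci1, which shifts double bonds in unsaturated chains, read 8728.8, 8651.0 and 6537.7 in the 6-week controls by its brightest probe set D00729_g_at. The same probe set read 5454.2, 7384.9 and 8097.9 with exercise (-0.20 ± 0.20) and 4846.0, 4426.4 and 6630.0 with salt (-0.59 ± 0.20, adjusted p = 0.0505). Ech1, which moves double bonds between positions, ranged from 5312.1 to 12088.4 over all arrays and changed by 0.31 ± 0.23 and -0.01 ± 0.23. Decr1, the dienoyl-CoA reductase for unsaturated chains, changed by 1.07 ± 0.34 with exercise by D00569_at (adjusted p = 0.0567) and by 0.30 ± 0.23 by D00569_g_at. The probe set annotated to both peroxisomal thiolases Acaa1a and Acaa1b ranged from 166.4 to 326.2. Ehhadh, the peroxisomal bifunctional enzyme, was not tested, at 6.0 to 125.3.

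Of the tested members, the largest estimates in both 6-week comparisons belonged to Acot2, a mitochondrial thioesterase that splits acyl-CoA into fatty acid and coenzyme A. By Y09333_at the controls read 557.3, 126.1 and 145.0, the exercised hearts 1383.3, 2364.4 and 2217.8 and the high salt hearts 1124.9, 1780.4 and 2692.5. Acot2 rose by 2.91 ± 0.45 with exercise (adjusted p = 0.00136) and 2.77 ± 0.45 with salt (0.000786), and every control lay below every treated array. The dimmer AB010429_s_at rose by 1.15 ± 0.33 and 1.43 ± 0.33 (0.0391 and 0.00731). The probe set annotated to both Acot1 and Acot2 read 425.5, 301.5 and 235.7 in the controls against 569.7 to 1290.8 in the 6 treated arrays, and rose by 1.5 ± 0.29 and 1.43 ± 0.29 (0.00361 and 0.00275). With the covariate Acot2 by Y09333_at stood at 0.96 ± 0.60 and 0.93 ± 0.58. The probe set annotated to Acot1 alone, the cytosolic enzyme, was not tested, at 4.9 to 71.9.

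The uncoupling proteins are carriers of the inner mitochondrial membrane, and Ucp3 is the form of muscle. Ucp3 by its brighter probe set AF035943_at read 235.8, 192.2 and 303.4 in the 6-week controls, 499.2, 680.0 and 710.4 with exercise and 261.3, 354.3 and 412.5 with salt. With exercise it rose by 1.24 ± 0.25 (adjusted p = 0.00509) with no overlap, and with salt the change was 0.43 ± 0.25 (0.275) and the groups overlapped. The second probe set, AF030163_s_at, read 90.8, 100.7 and 198.3, then 327.2, 445.9 and 443.0, then 257.1, 295.1 and 373.4 in the same groups, and rose in both comparisons, by 1.43 ± 0.28 and 1.08 ± 0.28 (0.00408 and 0.0141). Neither Ucp3 probe set fell in the order of the integrity ratio in the controls. Under the covariate the exercise estimates were 1.29 ± 0.45 and 1.97 ± 0.48, close to or above those without it, and their adjusted p were 0.562 and 0.195.

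Ucp2 was read differently by its probe sets. The brighter AB010743_at gave 8713.1, 5217.6 and 6939.9 in the 6-week controls, 5517.1, 7564.5 and 7423.9 with exercise and 6906.3, 6550.3 and 6546.4 with salt, and did not pass (-0.01 ± 0.19 and -0.03 ± 0.19, adjusted p = 0.983 and 0.938). AB005143_s_at gave 1240.3, 925.0 and 1024.6, then 1859.8, 1668.1 and 1724.0, then 1576.6, 2561.6 and 2360.6, and rose by 0.71 ± 0.21 and 0.98 ± 0.21 (0.041 and 0.00387). Against the controls of 3 and 15 weeks the estimate for AB005143_s_at changed sign, to -0.33 with exercise and -0.06 with salt. Ppara, the regulator, was dim at 57.3 to 175.9 over all arrays and changed by 0.16 ± 0.24 and 0.09 ± 0.24.

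**Figure D3:**
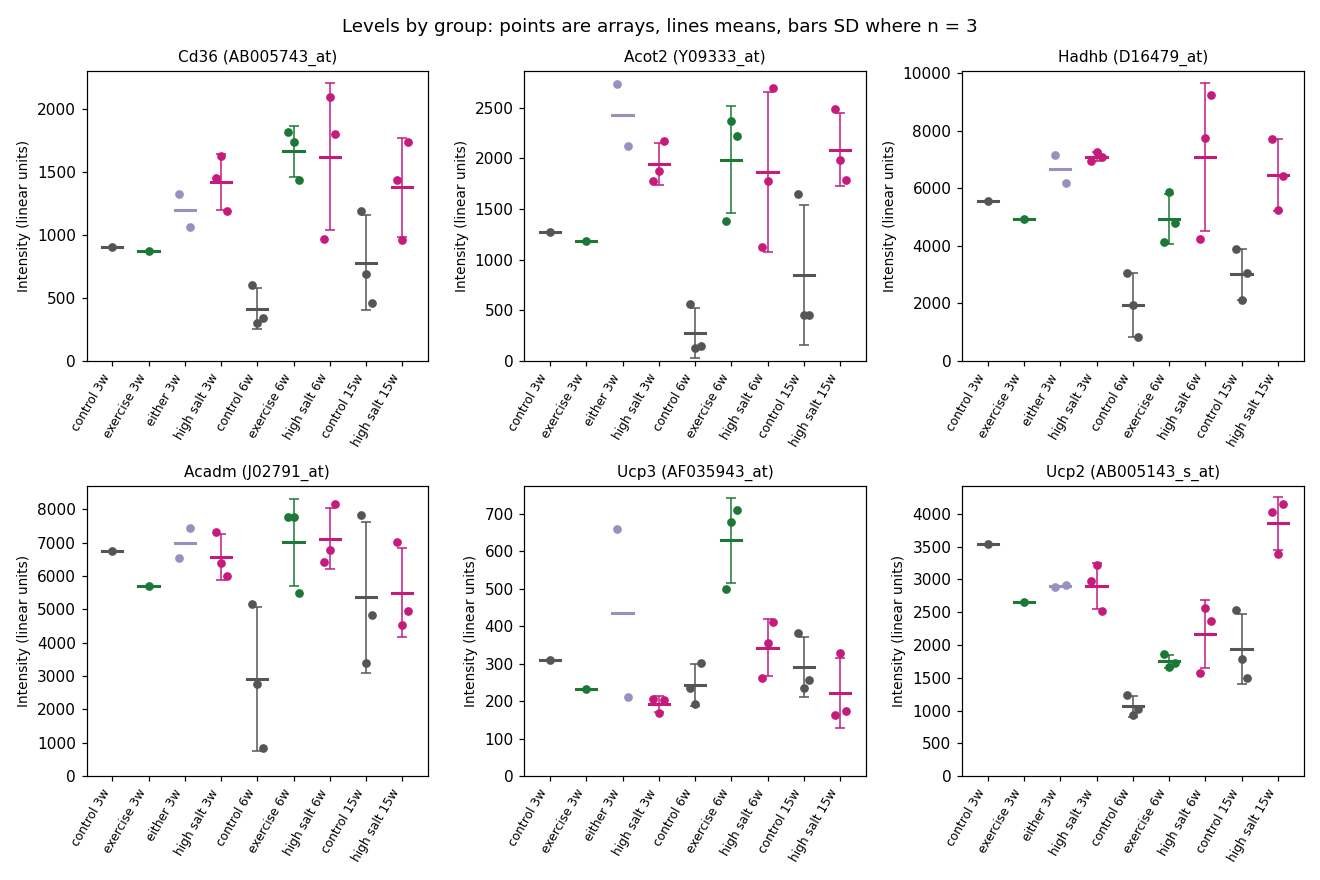
Linear intensity by group for 1 probe set each of Cd36, Acot2, Hadhb, Acadm, Ucp3 and Ucp2; points are arrays, lines are means, bars are SD where a group has 3 arrays, and "either" holds the 2 arrays deposited under both 3-week labels. The 6-week controls are the lowest group in the plots of Cd36, Acot2, Hadhb, Acadm and Ucp2, and exercise at 6 weeks has the highest mean for Ucp3.

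**Figure D4:**
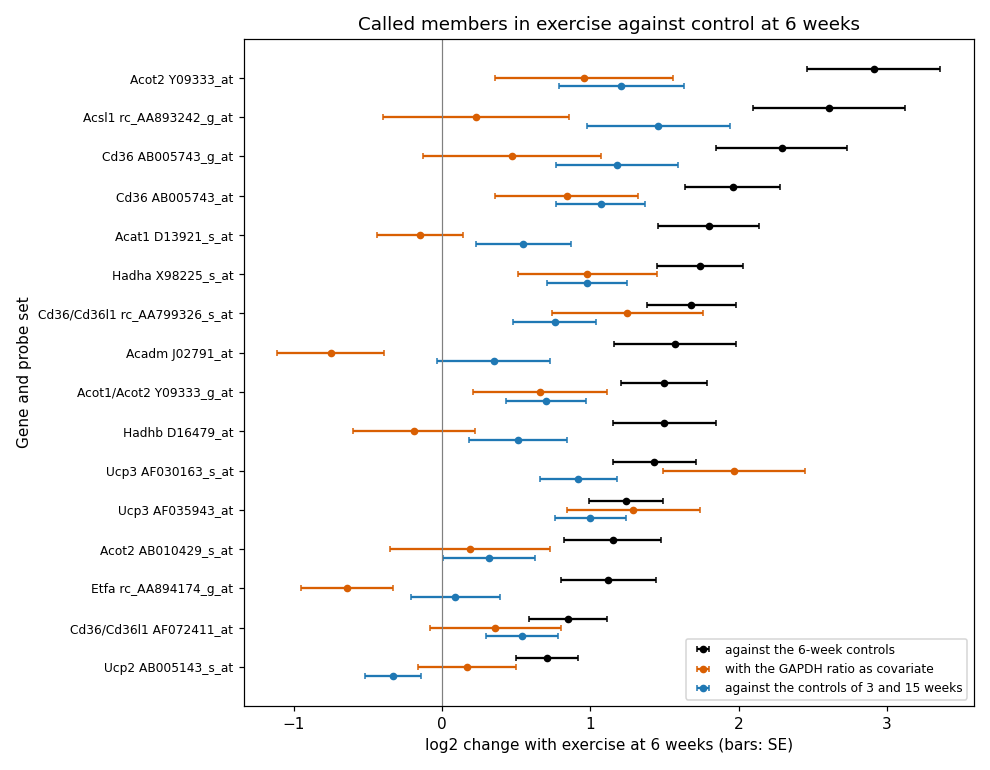
Log2 change with exercise at 6 weeks (horizontal axis, bars SE) for the 16 called member probe sets, against the 6-week controls (black), with the GAPDH ratio as a covariate (orange) and against the controls of 3 and 15 weeks (blue). Acadm moves from 1.57 to -0.75 with the covariate, whereas Ucp3 by AF035943_at stays at 1.29.

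Between high salt and exercised hearts at 6 weeks none of the 53 member probe sets passed (limma, 0 called), and this comparison does not use the 6-week controls. An unadjusted p under 0.05 was found for 3 members and for 462 of all 6555 probe sets. After adjustment 0.0153% of all probe sets were called. The median member difference, salt minus exercise, was -0.02. The smallest p belonged to Ucp3 by AF035943_at, where the 3 exercised hearts lay above the 3 high salt hearts and the difference was -0.81 ± 0.25 (unadjusted p = 0.0046, adjusted p = 0.439). Cpt1a read 1189.0, 935.0 and 848.4 with exercise against 641.1, 559.5 and 870.2 with salt, a difference of -0.51 ± 0.19 (adjusted p = 0.571) with overlap. Decr1 by D00569_g_at differed by -0.57 ± 0.23 (0.612). Among the members called against the controls, Acadsb had the highest estimate, 0.88 ± 0.49 (0.754). It passed the filter on dim signals only through high salt arrays, so this estimate is a description. With a p above the threshold these hearts are not shown to be alike.

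At 15 weeks few members were called. Of 53 probe sets, 4 rose and 2 fell in high salt hearts against controls (limma, adjusted p under 0.05). Over all probe sets, 3.28% were called higher and 3.92% lower, together 7.2%, so the 2 that fell are no more than the background. The members' median change was 0.06, against -0.04 for all probe sets. Leaving out the 2 controls with a GAPDH ratio over 1.5, an alternative added after seeing the data, left none of the 6 called (smallest adjusted p 0.405) with every sign kept and the median of the 4 rising and 2 falling probe sets going from 0.98 to 0.40. With the ratio as a covariate in place of that, 4 of the 6 were still called. The count of called members was 1 without control 2, without control 3 or without high salt array 1, 3 without high salt array 3 and 9 without control 1.

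Ucp2 had the smallest adjusted p of the members at 15 weeks, by the dimmer of its probe sets. By the brighter AB010743_at the 15-week controls read 5743.0, 8105.4 and 7975.6 and the high salt hearts 10907.1, 10312.8 and 11225.0, without overlap, with a change of 0.59 ± 0.19 that missed the threshold (adjusted p = 0.0687). AB005143_s_at read 2527.0, 1788.3 and 1501.2 against 4023.6, 3394.8 and 4145.8, a rise of 1.0 ± 0.21 (0.00456), also without overlap. Under the covariate Ucp2 by AB005143_s_at rose by 0.88 ± 0.20 (0.00918), and without the 2 controls with a ratio over 1.5 the change was 0.60 ± 0.27 (0.46). Ucp3 did not pass: AF035943_at read 382.9, 234.3 and 255.9 in the controls and 162.3, 328.8 and 174.5 with salt (-0.37 ± 0.25, adjusted p = 0.483).

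Acot2 rose by Y09333_at, from 1644.1, 448.3 and 450.4 in the controls to 2483.7, 1983.8 and 1782.7 with salt, by 1.51 ± 0.45 (adjusted p = 0.0475). The first control, whose GAPDH ratio was 1.09, lay near the high salt hearts and the other 2 far below. Without those 2 the change was 0.32 ± 0.54 (0.917). The probe set annotated to both Acot1 and Acot2 read 810.2, 434.8 and 520.4 against 1237.2, 1335.3 and 902.5 and rose by 0.96 ± 0.29 (0.0475). AB010429_s_at gave 0.84 ± 0.33 (0.152).

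The probe sets of Hadha went opposite ways at 15 weeks. The brightest, D16478_at, read 8860.9, 7950.2 and 8208.5 in the controls and 6174.2, 6585.5 and 5654.0 with salt, without overlap, and its change of -0.44 ± 0.17 did not pass (adjusted p = 0.139). D16478_g_at read 8320.0, 7767.6 and 8777.1 against 5708.7, 6047.0 and 4312.4 and fell by 0.64 on the log2 scale (SE 0.19, 0.0406). X98225_s_at read 846.9, 515.4 and 591.6 against 1770.4, 1601.7 and 1209.5 and rose by 1.19 ± 0.29 (0.0158). With the covariate all 3 were called, at -0.57, -0.71 ± 0.19 and 1.02 ± 0.28. Which part of the transcript each probe set reads is not given in the sources used here, so no direction is stated for the gene. Its partner Hadhb read 3876.2, 2100.9 and 3043.3 against 7726.2, 5236.4 and 6441.3, a change of 1.12 ± 0.35 (0.0584) without overlap.

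**Figure D5:**
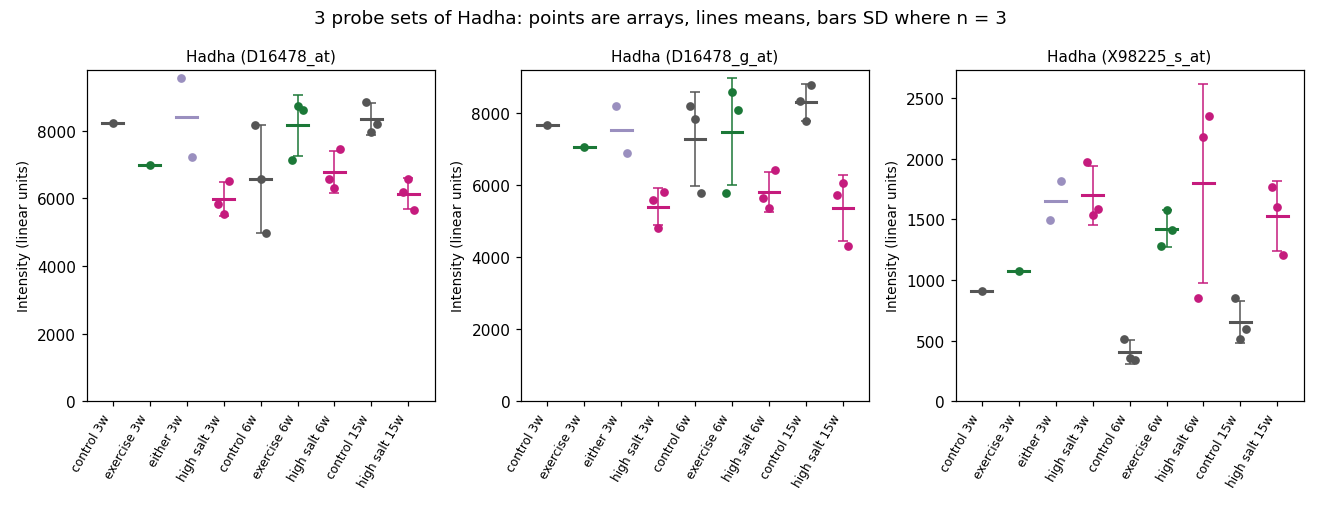
Linear intensity of the 3 Hadha probe sets by group; points are arrays, lines are means and bars are SD where a group has 3 arrays. At 15 weeks the high salt arrays lie below the controls for D16478_at and D16478_g_at and above them for X98225_s_at.

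Of the 4 Eci1 probe sets, only the dimmest fell at 15 weeks. The brightest, D00729_g_at, read 5814.7, 7728.7 and 6466.8 in the controls and 6012.7, 4219.6 and 4656.6 with salt (-0.43 ± 0.20, adjusted p = 0.236), with overlap. The dimmest, D00729_at, read 83.1, 103.7 and 85.2 against 14.7, 45.5 and 14.5, a fall of 1.04 on the log2 scale (SE 0.28, 0.0241), near the floor of the array. All 8 tested probe sets of the auxiliary and peroxisomal enzymes had estimates below 0 at 15 weeks, with a median of -0.34, and this 1 passed. Cd36 by AB005743_g_at read 1433.0, 576.4 and 397.0 in the controls and 2179.4, 1140.0 and 2087.1 with salt (1.27 ± 0.44, adjusted p = 0.0909). Acsl1 by rc_AA893242_g_at read 536.3, 112.3 and 109.9 against 552.7, 624.9 and 491.8 (1.33 ± 0.51, 0.132). In both, the control with a ratio of 1.09 lay within the range of the high salt hearts and the other 2 lay below all of them. The brightest Acsl1 probe set, rc_AI044900_s_at, leaned the other way (-0.47 ± 0.24), as did D90109_at (-0.31 ± 0.22). rc_AA893242_at gave 0.32 ± 0.30, and no Acsl1 probe set passed.

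Other members at 15 weeks gave small or scattered differences. Acadm read 7835.6, 3394.2 and 4837.7 in the controls against 7013.7, 4543.8 and 4947.9 (0.10 ± 0.41, adjusted p = 0.946). Acat1 by D13921_s_at read 2544.8, 1282.2 and 1272.3 against 2113.0, 2191.0 and 1611.9 (0.27 ± 0.34, 0.751). Etfa by rc_AA894174_g_at differed by 0.05 ± 0.32 and Echs1 by 0.51 ± 0.23 (0.227). Acadsb, which passed the filter on dim signals only through high salt arrays, is given as a description. It read 24.5, 10.3 and 15.7 against 168.2, 20.1 and 212.0, and its 1.38 ± 0.49 did not pass (0.101). Acadvl changed by -0.50 ± 0.25 (0.274), and the 5 probe sets of the carnitine shuttle lay between -0.06 and 0.40. Cell markers shifted in the same arrays: fibroblast markers, 6 of 7 listed, summed to 11055.5 to 21147 with salt against 25821 to 34903 in the controls, and red blood cell markers, 3 of 7 listed, to 31916 to 39002 against 18166 to 24498.5. Atrial markers summed to 36399 to 47623 with salt against 15843 to 18054.0, leukocyte markers to 3378.9 to 4094.4 against 4532.6 to 4954.7 and endothelial markers to 1451.0 to 1752.0 against 2140.1 to 2703.4. None of these 5 sums overlapped between the groups. Of their tested probe sets, 8 of 14 for fibroblasts, 4 of 9 for leukocytes and 1 of 12 for endothelium were called lower, and 6 of 13 for atrial myocytes and 3 of 5 for red blood cells higher. Their part in these results was not tested.

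At 3 weeks the 2 arrays with both labels are non-salt hearts under either, so the high salt hearts were compared with all 4 non-salt arrays together. None of 53 members passed (limma), and their median change was -0.06. An unadjusted p under 0.05 was found for 11 members and for 527 of all 6555 probe sets. After adjustment 0.153% of all probe sets were called. Acadsb passed the filter on dim signals only through high salt arrays, so its values are a description. It read 27.7, 17.1, 110.3 and 37.1 in the non-salt hearts and 190.5, 231.3 and 113.2 with salt, without overlap (1.38 ± 0.46, adjusted p = 0.343). Cd36 by AB005743_g_at read 769.2, 637.1, 1245.1 and 1022.0 against 1907.8, 1822.8 and 1646.0, also without overlap (0.98 ± 0.40, 0.518). Its other own probe set, AB005743_at, gave 0.44 and the groups overlapped. Acsl1 by rc_AA893242_g_at read 332.4, 296.0, 628.0 and 728.2 against 1107.4, 1099.6 and 1103.1 (1.18 ± 0.47, 0.501), again with every high salt heart above. The groups overlapped in the other Acsl1 probe sets, whose estimates went down to -0.39. In the other direction, Eci1 by D00729_g_at read 5405.9, 6856.9, 5551.3 and 6651.7 against 4180.8, 4061.9 and 3860.8 (-0.59 ± 0.18, 0.262). Cpt1a read 868.7, 898.5, 836.1 and 819.6 against 638.1, 564.0 and 583.7 (-0.50 ± 0.16, 0.343), with every high salt heart below. The Hadha probe sets split here too, with -0.46 ± 0.16 by D16478_g_at and 0.39 ± 0.28 by X98225_s_at, neither of which passed. Atrial markers summed to 22706.5 to 24113 with salt against 12235 to 18374 in the non-salt hearts (4 of 13 probe sets called higher). Leukocyte sums were 5784.6 to 6136.3 against 4665.2 to 5233.0, red blood cell sums 20520 to 23304 against 13589 to 15757.5 adipocyte sums 4323.5 to 4677.5 against 4907.3 to 6153.7 and brown adipocyte sums 1010.6 to 1413.3 against 1803.8 to 1948.5, none overlapping and none with a called probe set; their part was not tested.

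Over time within the high salt hearts, no member passed between 3 and 6 weeks (limma, 0 called). An unadjusted p under 0.05 was found for 3 members and for 303 of all 6555 probe sets. After adjustment 0.0763% of all probe sets were called. Ucp3 had the smallest p, with 0.87 ± 0.28 by AF030163_s_at (adjusted p = 0.802) and 0.70 ± 0.25 by AF035943_at (0.873). Between 6 and 15 weeks, 1 of 53 members rose and none fell, where 1.65% of all probe sets were called higher and 1.54% lower, together 3.19%. That member was Ucp2 by AB005143_s_at, which rose by 0.84 ± 0.21 (adjusted p = 0.0256) from 1576.6, 2561.6 and 2360.6 to 4023.6, 3394.8 and 4145.8. The other Ucp2 probe set went from 6906.3, 6550.3 and 6546.4 to 10907.1, 10312.8 and 11225.0 (0.69 ± 0.19, 0.0503). Neither overlapped between 6 and 15 weeks. In the covariate fit both rose (0.86 and 0.69, adjusted p = 0.00852 and 0.0412), while leaving out high salt array 1 or 3 of 15 weeks, or array 1 of 6 weeks, ended the call. At 3 weeks the high salt hearts read 2970.5, 3213.4 and 2515.0 by AB005143_s_at and 7028.1, 7621.1 and 6298.8 by AB010743_at. Fabp3 had an estimate of -0.59 ± 0.23 between 6 and 15 weeks (0.248), and all 8 dehydrogenase probe sets had estimates below 0, none of which passed. Cell markers shifted over the same weeks. Fibroblast sums were 27097 to 34936 at 6 weeks and 11055.5 to 21147 at 15 weeks (9 of 14 probe sets called lower). Leukocyte sums were 5925.3 to 8026.9 and 3378.9 to 4094.4 (4 of 9 lower). Red blood cell sums were 13731 to 18457 and 31916 to 39002 (3 of 5 higher). Atrial sums were 22246 to 24550.0 and 36399 to 47623 (4 of 13 higher). Adipocyte and smooth muscle sums also rose without overlap. Their part was not tested.

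Within the controls, no member passed between 6 and 15 weeks (limma, 0 called). An unadjusted p under 0.05 was found for 17 members and for 1112 of all 6555 probe sets. After adjustment 0.87% of all probe sets were called. The largest estimates were 1.49 ± 0.45 for Acot2 by Y09333_at (adjusted p = 0.108) and 1.20 ± 0.34 for Acat1 by D13921_s_at (0.0892). Leaving out 6-week control 1, which had the lowest ratio of that group, gave 8 called members. The difference between the salt effects at 15 and at 6 weeks was tested as an interaction, and no member passed (limma, 0 called). An unadjusted p under 0.05 was found for 12 members and for 1040 of all 6555 probe sets. After adjustment 1.6% of all probe sets were called. The median interaction over the members was -0.46, against 0.09 over all probe sets. The 6-week controls, whose integrity ratios are given above, enter this test. For 34 of 53 members the lowest of all 22 arrays was among them. The effects at 6 and 15 weeks are therefore not shown to differ for any single member, among them Acadm (-1.5 ± 0.58, adjusted p = 0.213) and Ucp3 by AF030163_s_at (-0.95 ± 0.40, 0.255). Leaving out 6-week control 1 gave 5 called members in this test and leaving out high salt array 2 of 15 weeks gave 1. Of the marker probe sets, 4 of 14 for fibroblasts, 4 of 9 for leukocytes and 1 of 20 for cardiac myocytes had a negative interaction called. For red blood cells 2 of 5 and for adipocytes 1 of 8 had a positive one. Their part in the members' values was not tested.

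The wider pathway, 75 other genes of lipid handling and its regulation of which 53 had a probe set, gave 76 tested probe sets. In exercised hearts at 6 weeks 12 rose and 2 fell, in high salt hearts at 6 weeks 10 rose and 4 fell, and in high salt hearts at 15 weeks 3 rose and 2 fell, read against the shares of all probe sets given above. Pdk4, the kinase that restrains pyruvate oxidation when fatty acids are used, was the first in each. It read 116.2, 26.2 and 24.7 in the 6-week controls, 1281.4, 1714.4 and 1622.0 with exercise and 563.6, 1259.6 and 2173.3 with salt, changes of 4.16 ± 0.53 and 3.78 ± 0.53 (adjusted p = 0.000753 and 0.000253). At 15 weeks it read 425.7, 56.9 and 29.6 in the controls and 1572.9, 1289.1 and 2309.8 with salt (3.55 ± 0.53, 0.000324). In both control groups its signal was lowest in the arrays with the highest GAPDH ratios, as for many members. Etfdh, which passes electrons on from Etfa to ubiquinone, rose by 2.15 ± 0.43 and 2.62 ± 0.43 at 6 weeks. Hsd17b4, a peroxisomal bifunctional enzyme, rose with salt by 1.98 at 6 weeks and 1.72 at 15 weeks. Its signal was near the floor of the array in most controls, at 10.7, 6.6 and 5.2 at 6 weeks. The 15-week controls read 76.2, 8.3 and 13.6, highest in the array with the GAPDH ratio of 1.09. The high salt hearts read 85.2, 197.2 and 181.8 at 6 weeks and 144.2, 233.8 and 172.9 at 15 weeks.

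Some genes of the same list moved the other way at 6 weeks, 2 of 76 probe sets with exercise and 4 with salt. Over all probe sets 3.36% and 7.73% were called lower, so these counts are no more than the background. Fabp4, the adipocyte fatty acid binding protein, read 2993.2, 6684.2 and 7001.4 in the 6-week controls against 1508.5 to 2389.3 in the 6 treated hearts, and fell by 1.24 with exercise and by 1.53 with salt on the log2 scale. Mgll, the monoglyceride lipase, fell by 1.31 and by 1.23. Lipe, the hormone-sensitive lipase, was the only gene of the list to pass the interaction test (1.47 ± 0.29, adjusted p = 0.0112). Its 6-week controls, which enter that test, read 1949.6, 2794.0 and 2850.9, rising in the order of the GAPDH ratio. The 15-week controls read 1498.0, 1653.4 and 1846.3. The part of RNA integrity in this result was not tested. Lipe rose between 6 and 15 weeks of high salt by 0.90 ± 0.21 (0.0159), from 1538.7, 970.6 and 1210.6 to 2466.7, 2479.1 and 1998.0. Scp2, a peroxisomal sterol carrier and thiolase, rose over the same interval by 0.85 ± 0.22 and against the 15-week controls by 1.0 ± 0.22. At 15 weeks Acsl5 and Fabp5 fell with salt, by 0.83 and by 0.94. These 2 of 76 probe sets are no more than the background, where 3.92% of all were called lower.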

How the data were processed

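The deposited table holds 1 linear intensity per probe set for 24 columns. How the authors summarised the probes, and with which software, is not given in the sources used here. Trimmed by 2% at each end, the column means lay between 500.8 and 501.0, so the arrays had already been brought to 1 level, and no further scaling was applied. Groups and array numbers came from the sample titles. Probe sets were named from the platform's annotation, which gave 1 symbol for 7018, several for 308 and none for 1473 of 8799. The members and all gene lists were chosen with earlier results of these data known, so no list is independent evidence.

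After leaving out 59 control probe sets, log2(intensity + 40) was taken, and those whose mean fell under the 25th percentile were set aside, leaving 6555 tested. Changes on this scale understate those of dim signals. One mean per group was fitted with limma 3.58.1 in R 4.3.3 (intensity trend, 12 residual degrees of freedom) to 20 arrays, leaving out the 2 deposited under both labels; a group with 1 array was assumed to vary like the rest. The 3-week comparison used all 22 distinct arrays with 15 residual degrees of freedom. P-values were adjusted by Benjamini-Hochberg over all 6555 and called under 0.05. The procedure was tested on simulated data. The number of arrays limits the precision.

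Members with a called probe set are given array by array, led by their brightest tested probe set, and others by range; in comparisons that called none of a gene's probe sets, the one called elsewhere may stand for it; of the wider lists, up to 6 called probe sets with the smallest p per comparison could be named. Marker sums use 1 probe set per gene. Same-numbered arrays of compared groups did not deviate together (correlations -0.23 to 0.24 over 21 pairs), so numbers were not used as pairs. Promoter windows are from RefSeq, build GRCr8; probe positions were not used here. Alternatives were other pseudocounts, no filter, quantile normalization, only the compared groups, other readings of the doubly labelled arrays, a replicate block, the GAPDH ratio as a covariate, other controls and leaving out each array.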

Additional observations from a re-analysis of the deposited data

Results flagged for a closer look

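Among the 4 non-salt arrays at 3 weeks, 5 member probe sets had 1 array far from the other 3, as chance gives in about 1 group in 20. The Acsl1 probe set rc_AI044900_s_at had a lowest value of 3014.3, against 3492.3, 3498.0 and 3544.8. Cpt1b by D43623_at had a highest value of 4828.1, against 3639.7, 3684.7 and 3707.2. Eci1 by rc_AA799541_at had a lowest value of 170.2, against 235.4, 236.4 and 239.3. Ucp3 by AF030163_s_at had a highest value of 404.4, against 145.5, 153.8 and 170.3. Ppara had a lowest value of 57.3, against 94.2, 97.4 and 98.6. The outlying array was the doubly labelled array 2 for Acsl1, Cpt1b and Ucp3, and control array 1 for Eci1 and Ppara.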

How the results depend on the processing

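All counts are of the 53 tested member probe sets called by limma, and the cause of each change was not tested. For high salt against control at 15 weeks (6 called) the count was 3 without a filter on low values, 3 with only the compared groups, 3 with the replicate block, 0 without the 2 controls with a GAPDH ratio over 1.5 (chosen after seeing the data), and 1 to 9 on leaving out each array in turn. For high salt against control at 6 weeks (18 called) it was 11 with only the compared groups, 0 with the GAPDH ratio as a covariate, 0 against the controls of 3 and 15 weeks, and 12 to 21 on leaving out each array. For exercise against control at 6 weeks (16 called) it was 0 with the covariate, 0 against the controls of 3 and 15 weeks, and 10 to 21 on leaving out each array. For high salt against non-salt at 3 weeks (0 called) the fit of only the compared groups gave 4. For high salt, 15 against 6 weeks (1 called), the count was 2 with all 24 columns, with both doubly labelled arrays as controls, with both as exercise, with a pseudocount of 100, with quantile normalization and with the covariate, 0 with only the compared groups, and 0 to 1 on leaving out each array. For control, 15 against 6 weeks (0 called), it was 2 with all 24 columns, 1 with the doubly labelled arrays as controls or as exercise, 1 with quantile normalization, 2 without the 2 controls with a ratio over 1.5, and 0 to 8 on leaving out each array. The interaction (0 called) gave 1 with quantile normalization and 0 to 5 on leaving out each array. High salt against exercise at 6 weeks and high salt, 6 against 3 weeks, stayed at 0 under every alternative run.

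Estimates that changed sign are these. With the covariate in high salt against control at 6 weeks, Acat1 by D13921_s_at gave -0.11, Acadm -0.58 and Etfa -0.60 by rc_AA894174_at and -0.27 by rc_AA894174_g_at. With the covariate in exercise against control, Acat1 gave -0.15, Hadhb -0.19, Acadm -0.75 and Etfa by rc_AA894174_g_at -0.64. Against the controls of 3 and 15 weeks, Ucp2 by AB005143_s_at gave -0.06 with salt and -0.33 with exercise. The covariate rests mainly on the 6-week controls themselves, and the median SE of the called members went from 0.32 to 0.44 for salt and 0.46 for exercise. Same-numbered arrays share only a number; with the replicate block the counts were 3, 18 and 14 for high salt at 15 weeks, high salt at 6 weeks and exercise at 6 weeks, 1 for high salt, 15 against 6 weeks, and 0 for the other 5 comparisons. Quantile normalization moved the median of all probe sets from -0.15 to -0.05 for high salt and from -0.12 to -0.04 for exercise at 6 weeks.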

Other observations

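Genes of lipid synthesis, not only of fatty acids, were measured by 34 probe sets for 12 of 24 listed genes, of which 27 were tested. With exercise at 6 weeks 4 rose and none fell, with salt at 6 weeks 6 rose and 3 fell, and with salt at 15 weeks 1 fell (limma, adjusted p under 0.05). Over all probe sets, 4.47% rose and 3.36% fell with exercise, 6.64% and 7.73% with salt at 6 weeks, and 3.92% fell with salt at 15 weeks, so the 1 of 27 at 15 weeks is no more than the background. The median change over the 27 was 0.03, 0.03 and -0.10. Me1, the cytosolic malic enzyme that supplies NADPH, read 282.1, 240.7 and 124.4 in the 6-week controls by rc_AI171506_g_at, 947.8, 980.3 and 704.1 with exercise and 750.4, 951.7 and 1170.1 with salt. It rose by 1.89 ± 0.29 and 2.00 ± 0.29 (adjusted p = 0.00136 and 0.000336). Fdft1, the squalene synthase, read 81.7, 49.6 and 29.0 in the controls, 676.2, 678.3 and 519.8 with exercise and 116.5, 830.4 and 393.1 with salt, and rose by 2.86 ± 0.57 and 2.10 ± 0.57 (0.00437 and 0.0176). Fdps, the farnesyl diphosphate synthase, rose by 1.18 ± 0.29 and 1.07 ± 0.29. Acly, the ATP citrate lyase, read 1148.0, 1482.8 and 1552.0 in the controls and 887.1, 676.4 and 402.1 with salt, and fell by 1.10 on the log2 scale (SE 0.26, 0.00725). At 15 weeks Elovl5, a fatty acid elongase, fell with salt by 0.77 (SE 0.19, 0.0149). Me1 and Fdft1 fell in the order of the GAPDH ratio within the 6-week controls and Acly rose in that order; the part of RNA integrity in these values was not tested.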
